A study of Chlorocebus sabaeus with 3 samples.

Results

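A set of 38 synaptic and neuronal genes, which encode synaptic vesicle, release, adhesion and neuronal structural proteins, was followed in the cell-free RNA of vervet monkey amniotic fluid. The members were chosen by gene name, and 36 of the 38 names were found among the 33994 genes of the files. All 36 were above 0 in at least 1 library. SV2A was not among the names, and TUBB3, the neuronal beta-tubulin, is listed only under its RefSeq gene ID, with 1 to 9 reads per library. TUBB3 was therefore kept out of the counts.

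Vervets (Chlorocebus sabaeus) are Old World monkeys. The fluid came from 3 pregnancies, and the status label of each gives its outcome. They are a stillborn pregnancy whose sex label is M, a spontaneous abortion whose sex label is NA, called the abortion library here, and a pregnancy labelled alive, with sex label F. Values given as a run of 3 are in the order stillborn, abortion, alive. All 3 samples are amniotic fluid supernatant, from which cells have been removed, with no treatment or genotype on the labels. The sources used here give neither gestational nor maternal age. Each outcome is 1 library, so every comparison sets library against library and has no test. Outcome, animal and sex label cannot be told apart in this design.

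Neurons release transmitter by fusing synaptic vesicles with the membrane, in a cycle run by SNARE proteins, calcium sensors of the synaptotagmin family and regulators such as complexins and synapsins. Neurexins and neuroligins join the sending and receiving sides of the synapse. Several of these proteins have relatives or further uses in secretion, adhesion and signalling outside the nervous system. Amniotic fluid collects RNA from fetal skin, airway, gut, kidney and membranes, and in a bulk fluid fewer cells of a type and less RNA per cell cannot be told apart.

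The deposited unit is RPKM, which scales reads to the gene's length in kilobases and to the library's assigned reads. The values of a gene stood in ratios of whole numbers, from which the reads, library totals and gene lengths were recovered. The totals were 17749954, 29926352 and 20220899 assigned reads. Recovered reads are lower bounds, because a factor shared by a gene's reads and its length cannot be seen. The members ranged from 0 reads to 2958 reads of GNAO1 in the abortion library. In the stillborn, abortion and alive libraries, 28, 34 and 24 of the 36 members were above 0, and 14, 19 and 16 had at least 10 reads. The latter were 38.9%, 52.8% and 44.4% of the members, beside 43.8%, 46.5% and 44.1% of all genes in the files. Levels were low by RPKM, with 3, 6 and 5 members at RPKM 1 or above. That is 8.33%, 16.7% and 13.9% of the members, against 29.3%, 29.9% and 30.05% of all genes.

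RPKM ranks these genes in a way that depends on the length used. The recovered lengths rose with the number of transcripts that RefSeq lists for a gene. Over protein-coding genes with at least 30 reads in every library, the median length was 2665 bases for 3121 genes with 1 transcript and 57705 bases for 183 genes with more than 16. The length exceeded the whole genomic span of the gene, introns included, for 8.32% of 9546 such genes and for 4 members (BSN, NRXN2, DLG4 and L1CAM). No source used here names the build behind the files, so spans may differ from theirs. MAP2 carried a length of 206078 bases and NRXN3 one of 184926 bases, against 1678 bases for VAMP2. MAP2 therefore stood at RPKM 0.0506 in the stillborn library with 185 reads, while VAMP2 stood at RPKM 4.94 with 147 reads. Ratios of the same gene between libraries do not depend on its length. Reads scaled to 1000000 assigned reads (RPM) are given beside RPKM below, and these are not per length.

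**Figure D1:**
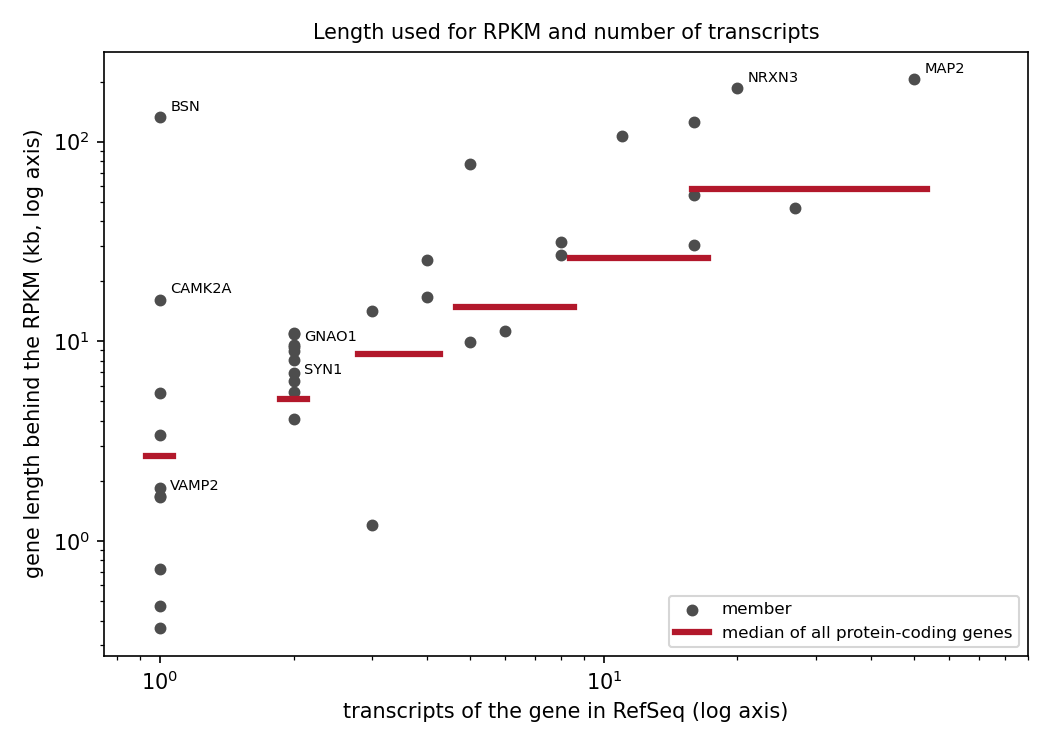
Gene length behind the RPKM values (kb, log axis) against the number of RefSeq transcripts of the gene (log axis). Points are the 36 members, and bars are medians over all protein-coding genes with at least 30 reads in every library, from 2665 bases at 1 transcript to 57705 bases above 16 transcripts.

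The members together held 266 RPM in the stillborn, 237 RPM in the abortion and 130 RPM in the alive library. GNAO1 made up 46.1% of the members' reads in the stillborn and 41.7% in the abortion library, while SYN1 and NCAM1 led the alive library with 604 reads each, 23.1% of its members' reads apiece. Without GNAO1 the sums were 143, 138 and 116 RPM. The 4 members with the most reads held 82.8%, 82.0% and 72.3% of the reads of all 36. The set was thus carried by a few genes, among them GNAO1, SYN1, PCLO and NCAM1, and most members lay far below them. Fewer than 10 reads in every library were found for 15 members, and 10 to 29 reads in the highest library for 5 more.

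**Figure D2:**
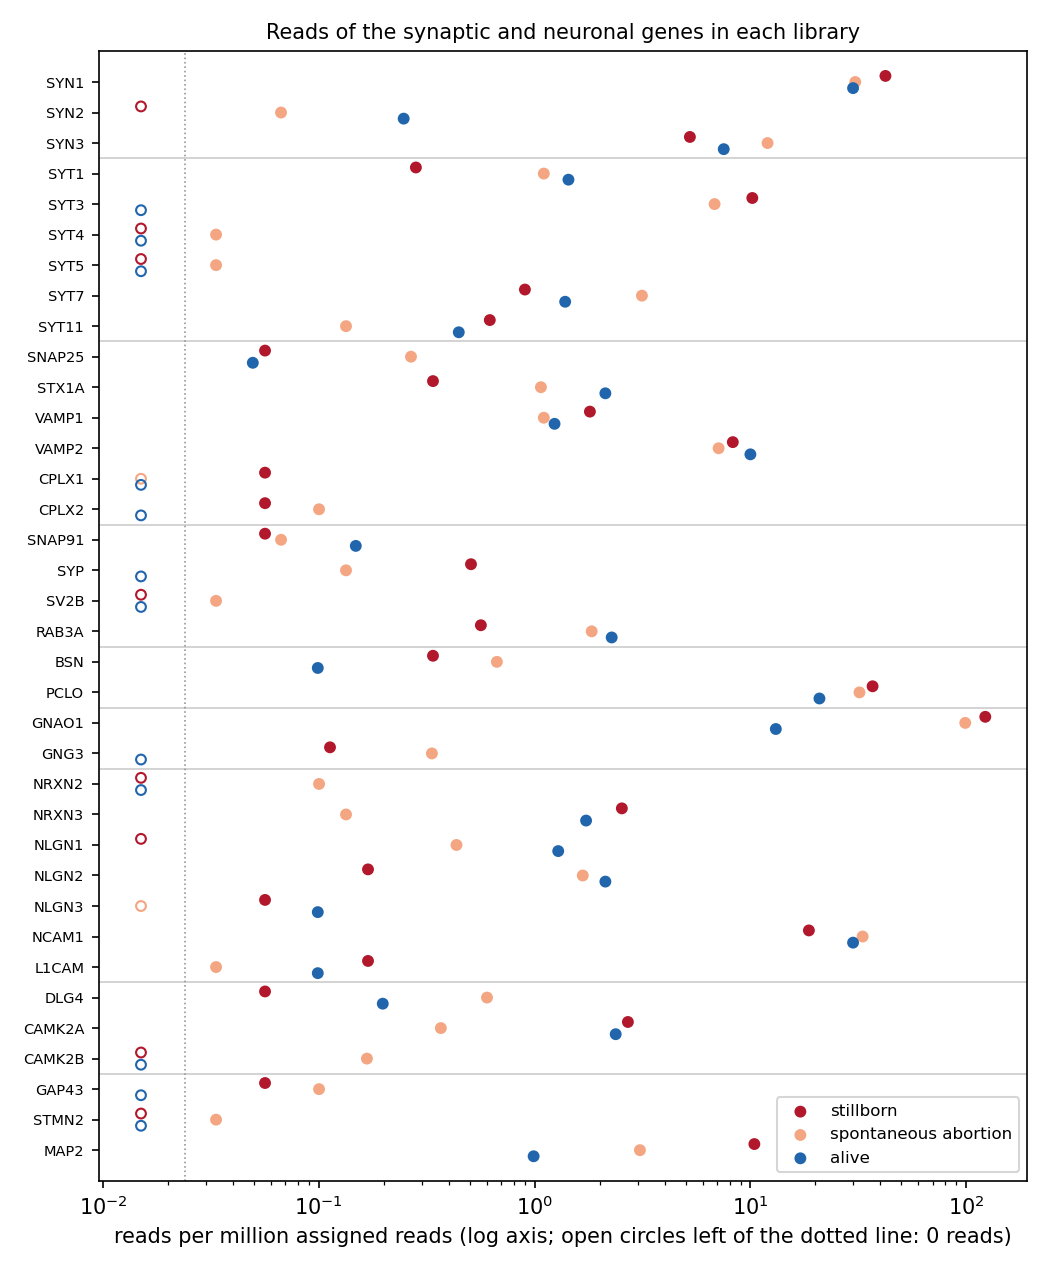
RPM (reads scaled to 1000000 assigned reads, log axis) of each member in the stillborn, abortion and alive libraries, with grey lines between roles and open circles for 0 reads. GNAO1 lies at 122, 98.8 and 13.1, and SYT3 at 10.2, 6.82 and 0.

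Defining neuronal transcripts were near 0 in these fluids. Of 20 neuron identity genes, 10, 10 and 15 were at 0 in the stillborn, abortion and alive libraries, and 7 were at 0 in all 3. Among those 7 were ELAVL3, an RNA-binding protein of neurons, GAD2, a GABA synthesis enzyme, and the cortical transcription factors NEUROD2 and NEUROD6. RBFOX3, the nuclear marker NeuN, was at RPKM 0.000811, 0.00144 and 0. The summed RPKM of this list was 1.96, 2.25 and 4.88, of which TH, tyrosine hydroxylase, made up 1.06, 1.84 and 4.54. Of 12 neuroendocrine genes, 0, 1 and 1 reached RPKM 1, the 1 being DDC, an amino acid decarboxylase that kidney and gut also express. The set is therefore described by its gene names, not as RNA of neurons.

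Markers of other cell types were summed in the same way, and these sums depend on the gene lengths too. The 11 squamous epithelial genes summed to RPKM 1001, 581 and 399 and the 10 myeloid genes to 75.5, 16.4 and 20.2. The 11 natural killer and T cell genes summed to 4.06, 1.17 and 20.9, with PRF1, CD3E, CD3D and CD247 at 0 in all 3 libraries, and the 9 skeletal muscle genes to 17.7, 11.0 and 27.9. The squamous sum fell in the order stillborn, abortion, alive, which is also the order of GNAO1, SYT3, PCLO and MAP2, but its genes did not run alike. The keratins KRT6A, at RPKM 588, 254 and 135, and KRT14, a basal keratin, at 31.7, 9.64 and 3.78, fell in that order. SPRR3, at 131, 4.63 and 2.54, and CRNN, at 41.3, 11.4 and 1.39, did too. KRT5, at 49.1, 151 and 151, and KRT15, at 2.41, 12.5 and 16.3, also basal keratins, were instead lowest in the stillborn library. The part of these cell types in the members' values was not tested.

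GNAO1 encodes the alpha subunit of the G protein Go, abundant in brain and also present in heart and endocrine cells. It was the most abundant member in both losses, at RPKM 13.1 in the stillborn (2173 reads), 10.5 in the abortion (2958 reads) and 1.40 in the alive library (265 reads). The losses were high and the alive library was low. The scaled ratio was 10.5-fold higher in the stillborn than in the alive library (95% interval 9.20 to 11.9) and 7.75-fold higher in the abortion library (6.83 to 8.82). Between the losses it was 1.35 (1.27 to 1.43). Intervals throughout are exact Clopper-Pearson intervals that cover counting error of reads only. They cover neither amplification nor the spread between animals. GNG3, a gamma subunit of brain G proteins, had 2, 10 and 0 reads, too few for a call.

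Members were called apart at a ratio of at least 4-fold with an interval that excluded 1 and at least 30 reads in the higher library. By this rule 7 of the 36 were apart in at least 1 pair, and 9 others reached 30 reads without being apart in any. For the stillborn against the alive library, 3 of the 14 members with 30 reads were higher and 2 lower. Over all 13498 genes tested the percentages were 4.71 higher and 3.23 lower. In both directions, 35.7% of the members were apart, beside 7.94% of all genes. For the abortion against the alive library 2 of 16 were higher and 2 lower, beside 2.30% and 1.51% of 13854 genes, or 4 of 16 against 3.81% in both directions. For the stillborn against the abortion library 2 of 16 were higher and 1 lower, beside 2.81% and 1.65% of 13858 genes, or 3 of 16 against 4.46%. Each pair shares a library with each other pair, so these counts are not independent, and they rest on few genes. The members were chosen with earlier results of these data known, so shares above those of all genes are no evidence about the set. The shares of all genes were not matched for read depth.

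The median log2 ratio over the 36 members, on the scale log2(RPKM + 0.1) after scaling, was 0 for the stillborn over the alive library, 0.06 for the abortion over the alive library and -0.05 for the stillborn over the abortion library. The same medians over all 23276 genes above 0 were 0, 0.02 and -0.02. On this scale the medians of the members lay near those of all genes in every pair. The added constant holds the many members near 0 reads close to a log2 ratio of 0. A mean RPKM under 0.1 was found for 24 members, so these medians say little about the set.

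**Figure D3:**
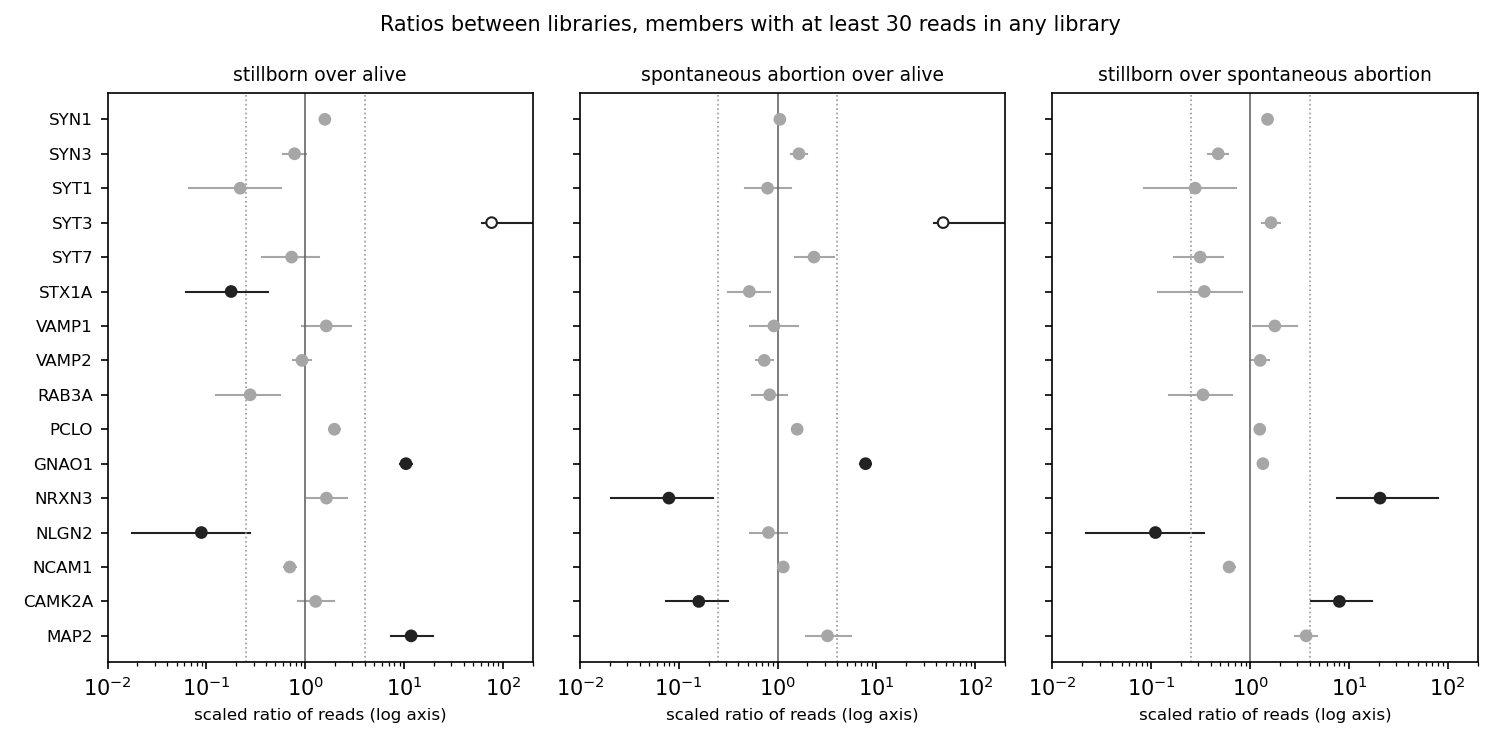
Scaled ratio of reads between libraries (log axis) for the 16 members with at least 30 reads in any library, with 95% counting intervals. Black marks members called apart, dotted lines mark 4-fold, and the open circle of SYT3 is a ratio against 3 reads because the alive library held 0.

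Synapsins tether synaptic vesicles to the actin cytoskeleton. SYN1 was at RPKM 6.64 in the stillborn, 4.81 in the abortion and 4.70 in the alive library, from 749, 915 and 604 reads. It was 1.58-fold higher in the stillborn than in the alive library (1.42 to 1.76), or 1.41-fold when scaled to assigned reads alone. The abortion and alive libraries differed by no more than counting error, at a ratio of 1.05 (0.948 to 1.17). SYN3 had the opposite order of the losses, at RPKM 0.587, 1.34 and 0.843, and was 2.10-fold higher in the abortion than in the stillborn library (1.67 to 2.67). SYN2 had 0, 2 and 5 reads.

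Each synapsin gene harbours a gene of the TIMP family, inhibitors of matrix proteases, in the RefSeq annotation. TIMP1 overlaps SYN1, TIMP4 overlaps SYN2 and TIMP3 overlaps SYN3. TIMP1 was at RPKM 59.3, 62.3 and 74.1, so its order differed from that of SYN1. TIMP3 was at 27.9, 18.2 and 14.4, also in another order than SYN3. TIMP4 had 3, 9 and 18 reads, rising in the same order as SYN2. Without a strand setting for the counting, reads of overlapping genes cannot be told apart, and the part of the TIMP genes in the synapsin values was not tested. None of these 3 members was among those called apart.

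Synaptotagmins are membrane proteins with paired C2 domains, several of which sense calcium in vesicle release. SYT3 had 181 reads in the stillborn and 204 in the abortion library, at RPKM 0.934 and 0.624. The alive library held 0 reads, where 3 reads would have given RPKM 0.0136. Taken against 3 reads, SYT3 was 76.9-fold higher in the stillborn and 47.2-fold higher in the abortion library than in the alive library. These ratios rest on the 3 reads chosen, and the lower bounds of the exact intervals were 61.9 and 38.1. Between the losses the ratio was 1.63 (1.33 to 2.00). SYT3 and GNAO1 were the members apart in the same direction in both losses against the alive library, which both comparisons share.

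None of the other synaptotagmins among the members was called apart, and SYT4, SYT5 and SYT11 had too few reads to show a pattern. SYT7, a calcium sensor also used in lysosome exocytosis, had 16, 94 and 28 reads. It was 2.33-fold higher in the abortion than in the alive library (1.51 to 3.69). SYT1, the calcium sensor of fast transmitter release, had 5, 33 and 29 reads and was 4.55-fold lower in the stillborn than in the alive library (1.74 to 15.1), under the limit of 30 reads by 1. SYT11 had 11, 4 and 9 reads. SYT4 and SYT5 each had 1 read, in the abortion library.

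SNARE proteins form the complex that fuses vesicle and target membranes. VAMP2, a vesicle SNARE with wide use in secretion, was among the more even members, at RPKM 4.94, 4.24 and 5.95 from 147, 213 and 202 reads. Its stillborn to alive ratio was 0.927 (0.745 to 1.15). The VAMP2 ratio was 0.732 (0.601 to 0.892) for the abortion over the alive library and 1.27 (1.02 to 1.57) for the stillborn over the abortion library. Its relative VAMP1 had 32, 33 and 25 reads, with intervals that spanned 1 in both comparisons with the alive library. For VAMP1 the stillborn to abortion ratio was 1.78 (1.06 to 2.99). STX1A, the neuronal target membrane syntaxin, had 6 reads in the stillborn, 32 in the abortion and 43 in the alive library. It was 5.62-fold lower in the stillborn than in the alive library (2.38 to 16.2). The abortion library lay between, 1.93-fold below the alive library (1.20 to 3.16), at a ratio of 0.517. The ratio was 0.795 in 1 random thinning of the libraries to the smallest total, which kept 25 of the 32 abortion reads. SNAP25, which completes the neuronal complex with STX1A and VAMP2, had 1, 8 and 1 reads, and the complexins CPLX1 and CPLX2 had at most 3 reads in any library. Of the 3 SNAREs of that complex, VAMP2 had the most reads in every library.

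Among vesicle membrane and traffic genes, RAB3A, a small GTPase of regulated secretion, was the 1 member with 30 reads. It stood at RPKM 0.339, 1.11 and 1.37, from 10, 55 and 46 reads, and was lowest in the stillborn library. The ratio there was 3.61-fold lower than in the alive library (1.80 to 8.02), short of 4-fold. SYP, synaptophysin, the usual marker of synaptic vesicles, had 9, 4 and 0 reads. SNAP91, a clathrin adaptor, had 1, 2 and 3 reads. SV2B, a vesicle transporter-like protein, had 1 read, in the abortion library, at RPKM 0.00297. It was among the 3 members with the lowest mean RPKM, with SYT4 and NRXN2.

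Both giant scaffold proteins of the presynaptic active zone were measured. PCLO, piccolo, had 653, 957 and 422 reads, or 36.8, 32.0 and 20.9 RPM, over a length of 77298 bases. Its RPKM was 0.476, 0.414 and 0.270. It was 1.97-fold higher in the stillborn (1.74 to 2.23) and 1.57-fold higher in the abortion (1.40 to 1.77) than in the alive library. BSN, bassoon, its structural relative, had 6, 20 and 2 reads. By reads, PCLO was thus among the most abundant members, while its RPKM was below 1 in every library.

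**Figure D4:**
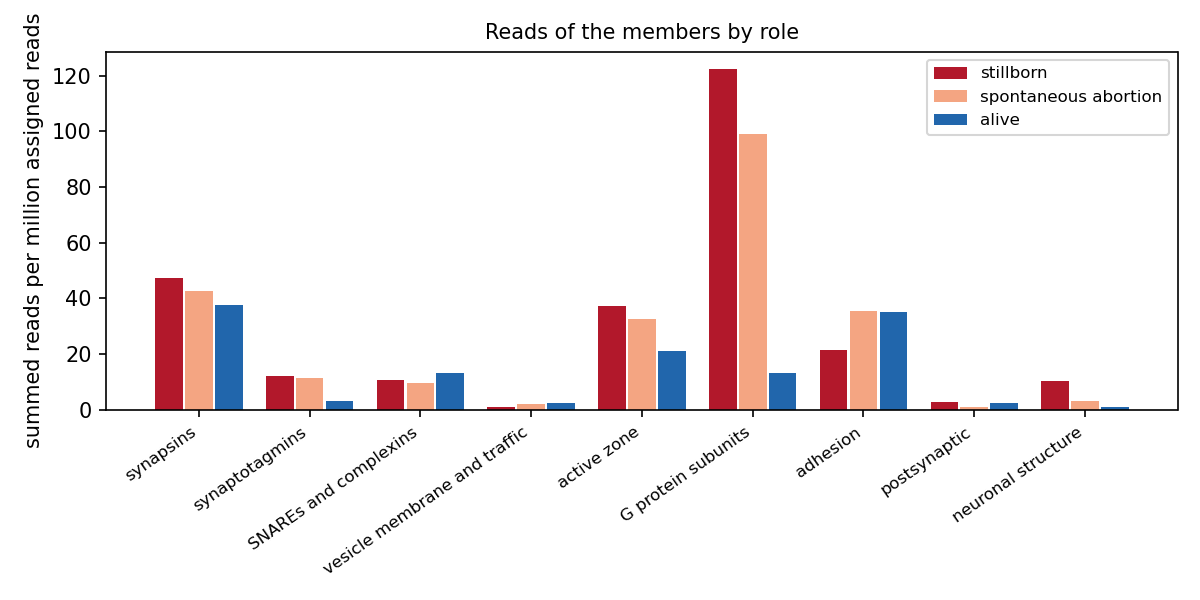
Summed RPM of the members by role, 1 bar per library. G protein subunits stand at 123, 99.2 and 13.1 in the stillborn, abortion and alive libraries, and synapsins at 47.4, 42.6 and 37.6.

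Adhesion genes included the member with the largest ratio between the losses among those with 30 reads. NRXN3, a neurexin of the presynaptic side, had 45 reads in the stillborn, 4 in the abortion and 35 in the alive library. Here the abortion library was low and the others were close, at a stillborn to alive ratio of 1.64 (1.03 to 2.63). NRXN3 was 12.6-fold lower in the abortion than in the alive library (4.50 to 48.8), and 20.6-fold higher in the stillborn than in the abortion library (7.53 to 79.0). In 1 random thinning of the libraries to the smallest total, which kept all 4 abortion reads, the abortion to alive ratio was 0.136 in place of 0.0794. The stillborn to abortion ratio was 12.5 in that draw. NLGN2, the neuroligin of inhibitory synapses, had 3, 50 and 43 reads, so that the stillborn library was the low one. It was 11.2-fold lower there than in the alive library (3.60 to 56.7) and 9.08-fold lower than in the abortion library (2.93 to 45.5).

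The remaining neuroligins and neurexin left few reads. NLGN1, the neuroligin of excitatory synapses, had 0, 13 and 26 reads, also lowest in the stillborn library but under the limit of 30. NLGN3 had 1, 0 and 2 reads. NRXN2 had 3 reads in the abortion library and 0 elsewhere, at RPKM 0.000796. Its number of reads and its length rest on the printed value of 1 library and are the least certain of the set.

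NCAM1, a cell adhesion molecule of neurons, muscle and natural killer cells, was the adhesion gene with the most reads. It had 331, 990 and 604 reads, at RPKM 0.686, 1.22 and 1.10. It was 1.43-fold lower in the stillborn (1.25 to 1.64) and 1.14-fold higher in the abortion (1.03 to 1.26) than in the alive library. Genes of natural killer cells and muscle ran in several orders. GZMB, a granzyme of cytotoxic cells, had 34, 7 and 181 reads, and the muscle gene TNNT1 was at RPKM 15.8, 8.25 and 25.9, both lowest in the abortion library, where NCAM1 was highest. GZMA, another granzyme, had 6, 17 and 63 reads and was lowest in the stillborn library. The muscle gene TNNT3 was highest in the abortion library, as NCAM1 was, at RPKM 1.66, 2.14 and 1.14. The part of both cell types in the NCAM1 values was not tested. L1CAM, an adhesion molecule of growing axons, had 3, 1 and 2 reads.

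Of the postsynaptic members, CAMK2A, the alpha subunit of the calcium/calmodulin-dependent kinase of excitatory synapses, had 48 reads in the stillborn, 11 in the abortion and 48 in the alive library. As with NRXN3, the abortion library was the low one. CAMK2A was 6.28-fold lower there than in the alive library (3.22 to 13.4), and 8.01-fold higher in the stillborn than in the abortion library (4.10 to 17.1). CAMK2B had 5 reads, all in the abortion library. DLG4, the scaffold PSD-95, had 1, 18 and 4 reads.

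Among structural genes, MAP2, a microtubule-associated protein of dendrites, had 185 reads in the stillborn, 92 in the abortion and 20 in the alive library, or 10.4, 3.07 and 0.989 RPM. The libraries were well separated, in that order. MAP2 was 11.8-fold higher in the stillborn than in the alive library (7.42 to 19.8). In the abortion library it was 3.19-fold higher than in the alive library (1.95 to 5.47) and 3.69-fold higher in the stillborn than in the abortion library (2.86 to 4.79), both short of 4-fold. GAP43, a growth cone protein, had 1, 3 and 0 reads, and STMN2, a tubulin-binding protein of growing axons, had 1 read, in the abortion library. Both other structural members thus stayed at or under 3 reads where MAP2 reached 185.

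Further genes of the pathway were followed in 4 lists, to be read beside the 7.94% of all genes tested that were apart in either direction in the stillborn and the 3.81% in the abortion against the alive library. Of 44 other presynaptic genes in the files, 1 was higher and 2 lower among 20 tested in the stillborn against the alive library, and 1 was higher and 2 lower among 21 in the abortion library. SYT17, an atypical synaptotagmin, had 42, 125 and 11 reads and was 4.87-fold higher in the stillborn (2.46 to 10.5) and 7.89-fold higher in the abortion than in the alive library (4.26 to 16.2). SYT17 was thus called higher in both losses, as SYT3 was. SYNGR3, a vesicle membrane protein, went the other way, with 9, 15 and 47 reads, and SYT9 had 9, 71 and 55. RIMS2, an active zone protein, had 18, 21 and 67 reads and was 4.59-fold lower in the abortion than in the alive library (2.78 to 7.90). The most abundant of the list were VAMP3, at RPKM 226, 235 and 189, and SNAP23, at 23.5, 25.6 and 23.5. These are the SNAREs of general secretion, related to VAMP2 and SNAP25.

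Of 28 other adhesion genes, 1 of 10 tested was apart in the stillborn against the alive library and 0 of 10 in each other pair. That gene was LRRTM3, a synaptic leucine-rich repeat protein, at RPKM 14.6, 7.45 and 1.97 from 1722, 1485 and 266 reads. It was 8.25-fold higher in the stillborn than in the alive library (7.25 to 9.42), an order of libraries that GNAO1 also had. FLRT2, another leucine-rich repeat protein, was at 1.44, 2.85 and 3.35.

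Of 32 other postsynaptic genes, 1 of 14 tested was higher in the stillborn against the alive library, beside 7.94% of all genes in either direction. In the abortion against the alive library 1 of 13 was higher, beside 3.81%. In both pairs 0 were lower, and 1 gene is too few to set against a share. DLGAP1, a scaffold that binds PSD-95, had 34, 27 and 6 reads. GRIN2B, a subunit of the NMDA receptor, had 14, 80 and 7 reads and was 7.94-fold higher in the abortion than in the alive library (3.68 to 20.4). DLGAP4 and PPP1R9B, spinophilin, were the most abundant, at RPKM 4.99, 3.83 and 3.61 and at 4.67, 6.52 and 7.68.

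Of 35 other neuronal structure genes, 0 of 25 tested were higher and 4 lower in the stillborn against the alive library. These were MAP1B, THY1, MARCKSL1 and DPYSL5. MAP1B, a microtubule-associated protein like MAP2, had 227, 1672 and 1283 reads, at RPKM 0.356, 1.56 and 1.77. It was 4.43-fold lower in the stillborn than in the alive library (3.85 to 5.13), where MAP2 was higher. THY1, a surface glycoprotein of neurons and fibroblasts, was at RPKM 3.51, 7.31 and 17.8, and MARCKSL1, an actin-binding protein, at 10.4, 20.3 and 48.1. DPYSL5, a collapsin response mediator of developing neurons, had 0, 4 and 44 reads. In the abortion against the alive library, 1 of 26 tested was higher and 2 were lower. ENO2, neuron-specific enolase, had 28, 74 and 12 reads and was the higher one. BASP1, a growth cone protein with roles close to those of GAP43, was at RPKM 3.85, 2.69 and 13.3 and was lower, 4.81-fold (4.19 to 5.54), as was DPYSL5. GNAS, the stimulatory relative of GNAO1, was the most abundant gene of the list beside DPYSL2. GNAS stood at RPKM 154, 157 and 165, even across the libraries in which GNAO1 ranged from 13.1 to 1.40.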

How the data were processed

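Cell-free RNA was isolated with a circulating nucleic acid kit, treated with DNase and amplified with the Ovation SPIA chemistry, per the labels' protocols. Per the submitters' processing notes, bcl2fastq 2.17, STAR and HTSeq were used. Other versions, the genome build, the annotation, the strand setting and how RPKM was made: not given in the sources used here. RPKM values were deposited by the authors, 1 per gene and library.

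Reads, totals and lengths were recovered by solving RPKM as reads per kilobase of length, scaled to 1000000 of the total, for whole numbers within the rounding of the printed digits. This gave whole reads for 99.97% of the 23276 genes above 0, summing to 96.6% to 97.1% of the totals. Lengths were searched to 150000 bases, and to 400000 for genes above 0 in at least 2 libraries. Recovery and the call rule were tested on simulated data, with outcomes not given here. The simulated gene lengths were shorter than those of GNAO1, SYT3, NRXN3 and MAP2, so recovery at such lengths was not covered. SPIA libraries carry no molecular identifiers, so reads copied from the same molecule cannot be told apart. The intervals treat reads as independent and may therefore be too narrow.

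TMM scaling factors (trimmed mean of M-values) were 0.936, 1.02 and 1.05 for the stillborn, abortion and alive libraries, computed in Python 3.11.15 with numpy 2.4.6 and scipy 1.17.1. A library at 0 reads was taken as 3 reads in ratios. With 1 sample per group no test was run. Transcript numbers, overlapping genes and gene IDs came from the RefSeq table of mChlSab1.0.hap1, whose build may differ from that of the files. No sequences are shown.

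The members and lists were chosen with earlier results of these data known. Values are printed for members called apart in any pair, those whose mean RPKM is 1 or more, the 3 highest and 3 lowest, and those at 0 in 1 library with at least 30 reads in another. The others are given by their reads, except SYN3, PCLO, RAB3A, SYT7, SYT1 and VAMP1. The RPKM or ratios of these are also given, and they were chosen after their values were seen. From the other lists, genes called apart and the 2 most abundant were eligible, and some of these are not shown. SOX2, RBFOX3 and markers listed at 0 were also named after their values were seen.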

Additional observations from a re-analysis of the deposited data

How the results depend on the processing

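No paired analysis was possible because each group has 1 sample. With other scalings (RPKM as deposited, or median-of-ratios size factors) the counts of members apart stayed within 1.5 times those reported. Of the 60 ratios of named members recomputed with these scalings, 2 left their counting interval, SYN1 in the stillborn over the alive library (1.41) and GNAO1 in the stillborn over the abortion library (1.24), both on RPKM as deposited. No ratio of a member called apart changed direction under these scalings or with libraries thinned to the smallest total. Thinning moved NRXN3 by over 1.5 times, to 0.136 in the abortion over the alive library and 12.5 in the stillborn over the abortion library. Thinning was 1 random draw, so shifts under it include the noise of that draw. With a minimum of 10 reads, or none, 4 members in place of 2 were lower in the stillborn than in the alive library, and 2 in place of 1 lower than in the abortion library. Without a minimum, 4 in place of 2 were higher in the stillborn than in the abortion library. At 2-fold, 4 were higher in the abortion than in the alive library, and 6 were lower in the stillborn than in the abortion library. With libraries thinned, 0 were lower in that pair, with NLGN2 at 27 reads in the abortion library. The median log2 ratio of that pair was -0.34 with a pseudocount of 0.01, and that of the abortion over the alive library was 0.28. Over the 4 members whose mean RPKM is 1 or more, the median of the stillborn over the abortion library turned to 0.38. Leaving out the 3 synapsins that overlap TIMP genes, an alternative chosen after seeing the data, could change no count of members apart. None of the 3 was called apart, so this alternative says nothing about the overlap. Depth limits the set, since 15 members had fewer than 10 reads in every library and 5 more had fewer than 30.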

Other observations

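In the stillborn against the alive library, 1 of 6 glial and 1 of 3 neural progenitor genes tested were apart, beside 7.94% of all genes. In the abortion against the alive library, 0 of 7 and 0 of 4 were, beside 3.81%. Between the losses, 1 of 8 glial genes was higher and 1 lower, and 0 of 4 progenitor genes were apart, beside 4.46%. The most abundant progenitor gene, VIM, at RPKM 3212, 3344.5 and 2231, was apart in no pair. AQP4, a water channel of astrocytes that airway and other epithelia also express, had 155, 28 and 3 reads in the stillborn, abortion and alive libraries, and was 65.8-fold higher in the stillborn than in the alive library (95% counting interval 22.1 to 323). GFAP, the astrocyte intermediate filament, had 2, 40 and 10 reads, and MOG, a myelin protein, was at 0 in all 3. CNP, a myelin enzyme found in many cells, was at RPKM 2.41, 4.15 and 5.89. NES, the intermediate filament nestin of progenitor cells, was at RPKM 0.484, 1.02 and 4.16 and was 7.67-fold lower in the stillborn than in the alive library (5.71 to 10.5). SOX2, a progenitor transcription factor that squamous epithelia also express, was at 0.488, 0.114 and 0.122.

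Among neuron identity genes, ELAVL4, an RNA-binding protein of neurons, had 32, 1 and 0 reads, and ISL1, a transcription factor of motor neurons and other tissues, had 41, 8 and 17. Both were highest in the stillborn library. TH ran in the opposite order, with 107, 312 and 521 reads.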
